A study of Brassica napus with 6 samples.

Results

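The 79 genes described here were the most abundant transcripts of vacuolated microspores of Brassica napus (oilseed rape), and they are followed into heated cultures. Abundance was measured as CPM, the count of a gene scaled to a common library total, and a member had to be among the 100 highest CPM in each of 3 vacuolated microspore libraries. The members were 79 of the 104573 rows of the deposited count table. The vacuolated microspore values chose them, so those values are a description, and any comparison with them carries that choice. CPM is not corrected for transcript length, which was not used here, so the ranking is one of counts and favours long transcripts. The files give identifiers without products, so members are called by their rank of mean CPM in vacuolated microspores, from member 1 to member 79. For the same reason the labelled cell types could not be checked against marker genes.

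A microspore is a single cell formed by male meiosis, and at the vacuolated stage a large vacuole presses its nucleus to one side. In the plant the cell then divides unequally and becomes pollen, living in part on transcripts it has stored. Heat applied in culture at this stage can turn some of the cells to a series of equal divisions that leads to a proembryo.

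All libraries came from DH-4079, a line of the cultivar Topas. The HS_4day group held 3 libraries of microspore cultures kept at 32 °C from their start to day 4, which contained both microspores and proembryos. The VacuolatedMicrospore group held 3 untreated libraries taken at day 0, before stress. None of these libraries is from an unheated culture of day 4, so the effects of heat, of days in culture and of development cannot be told apart. In such bulk libraries, fewer cells of a type and less RNA per cell cannot be told apart either, and cells that did not respond stay in the heated cultures.

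Total counts per library ranged from 29144220 to 39558658, and 3 counts corresponded to 0.0758 to 0.103 CPM. Over the 56949 genes that passed a filter on low counts, HS_4day replicate 3 stood apart from its group. Its log2 CPM correlated at 0.623 and 0.596 with HS_4day replicates 1 and 2, which correlated at 0.965 with each other. These values run over genes, which are not replicates, and have no test. Each result is therefore given per HS_4day library, or with and without replicate 3.

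In vacuolated microspores mean CPM was 3307 for member 1, 635 for the median member and 441 for member 79. Members 1 and 2 headed all 3 libraries. Members 3 to 7 followed, with means of 1873, 1697, 1666, 1605 and 1474 CPM. The spread between the 3 libraries, as SD over mean, ranged from 0.64% to 52.2% with a median of 9.7%. At the edge of the set, the lowest members stood at 428, 409 and 427 CPM in vacuolated microspore replicates 1, 2 and 3, against 427, 405 and 425 CPM for the genes ranked 101. A further 18 rows reached the top 100 in exactly 2 of these libraries and 27 rows in exactly 1. Member 59 has an identifier of the ENSRNA type, and the other 78 are of the GSBRNA2T type. ENSRNA rows made up 3.38% of the table.

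**Figure D1:**
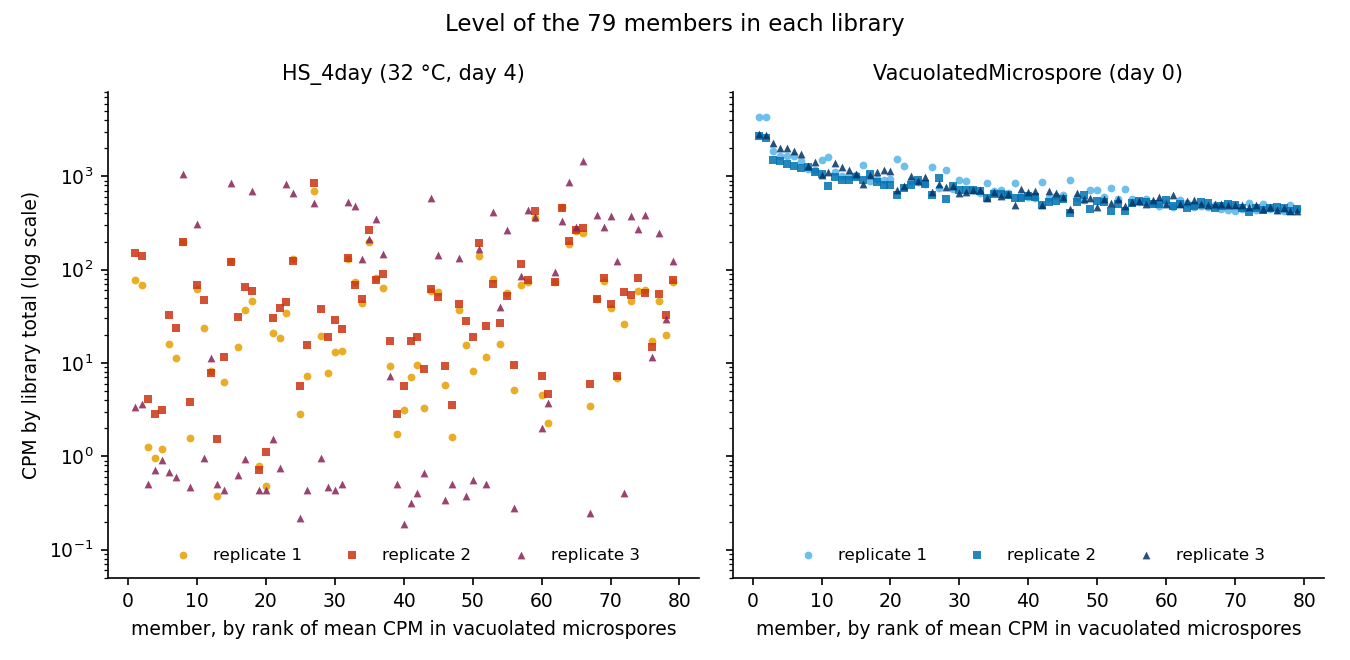
CPM by library total (log scale) of each of the 79 members, ordered by rank of mean CPM in vacuolated microspores; the left panel has the 3 HS_4day libraries and the right panel the 3 VacuolatedMicrospore libraries, with 1 point per member and library. At day 0 every point lies between 409 and 4363 CPM, while the heated cultures range from 0.188 to 1448 CPM and replicate 3 has a group of points under 1 CPM.

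The members lost most of their place in the heated cultures. Together they held 0.505%, 0.605% and 1.51% of the counts of HS_4day replicates 1, 2 and 3. In vacuolated microspore replicates 1, 2 and 3 they held 7.06%, 5.79% and 6.58%. The group means were 0.873% ± 0.554 in HS_4day and 6.48% ± 0.644 in vacuolated microspores (SD, n = 3 each). The 95% Wilson intervals in HS_4day were 0.503% to 0.508%, 0.602% to 0.607% and 1.506% to 1.515% in replicates 1, 2 and 3. They cover counting error only. All 3 HS_4day shares were below all vacuolated microspore shares, a direction that the choice of members favours. The share in HS_4day replicate 3 was the highest of its group.

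Ranks within the libraries were also compared. No member was among the 100 highest CPM of HS_4day replicate 1 or 2, where the best placed member ranked 170 and 138. In HS_4day replicate 3, 11 members were, and the best ranked 19. The median member ranked 4743, 2344 and 18869 in HS_4day replicates 1, 2 and 3. HS_4day replicate 3 therefore held both the best and the worst placed members of the heated cultures.

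**Figure D2:**
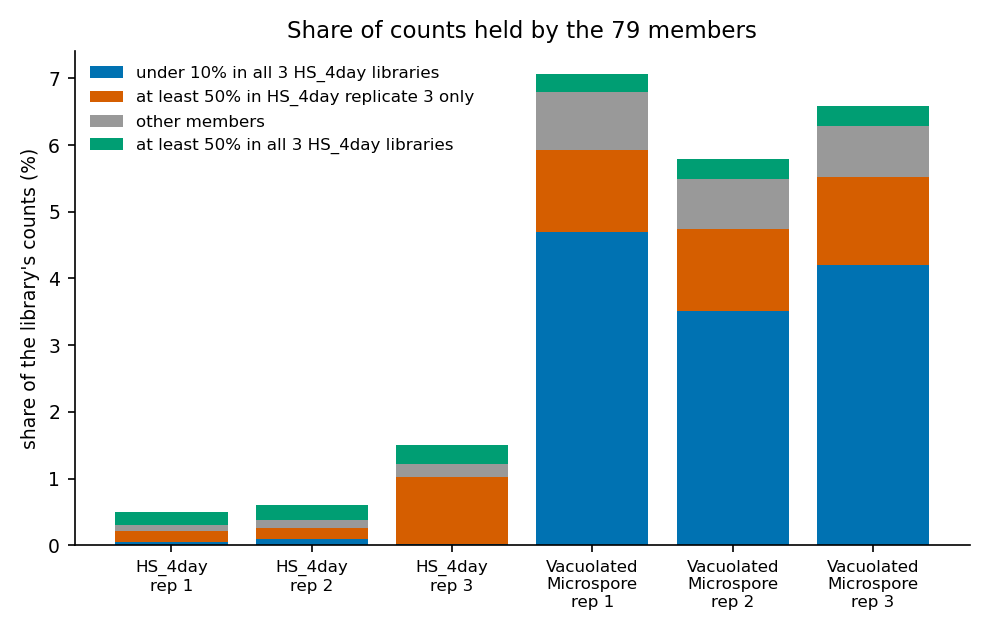
Share of each library's counts (%) held by the 79 members, stacked by the level left in the heated cultures relative to the vacuolated microspore mean CPM; the 3 HS_4day libraries are on the left and the 3 VacuolatedMicrospore libraries on the right. The members under 10% in all 3 heated cultures make up 3.52% to 4.70% of the counts at day 0 and at most 0.0986% at day 4.

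A member is called kept in a library where its CPM was at least 50% of its vacuolated microspore mean, raised at 2 times that mean or more, reduced from 10% up to 50%, and lost under 10%. In HS_4day replicate 1, 54 members were lost, 20 were reduced and 5 were kept. In HS_4day replicate 2, 52 were lost, 22 were reduced and 5 were kept. In HS_4day replicate 3, 43 were lost, 12 were reduced, 23 were kept and 1 was raised. Over all tested genes the lost class held 17.5%, 16.6% and 11.3% in HS_4day replicates 1, 2 and 3. The class at 50% or more held 39.7%, 40.7% and 69.5% of all tested genes, and 21.1% were raised in replicate 3.

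The median member stood at 2.89%, 4.80% and 1.14% of its vacuolated microspore mean in HS_4day replicates 1, 2 and 3. For all tested genes with a vacuolated microspore count, the medians were 35.0%, 36.5% and 79.5%. A gene chosen for a high value in one group tends to be lower in any other library, so no more is read from the gap. CPM is a share of a fixed total, and with TMM scaling, a correction that centres the bulk of genes, the all-gene medians became 92.5%, 92.5% and 94.4%. The member medians on that scale were 7.63%, 12.1% and 1.35%. TMM-scaled CPM counted 41, 33 and 43 lost members and 8, 9 and 25 members at 50% or more. The shares of all tested genes in these classes were not counted on that scale.

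Taken over the 3 heated cultures, 42 members were lost in all of them, beside 5.7% of all tested genes. At 50% or more in HS_4day replicate 3 only were 19 members, beside 34.3% of all tested genes. At 50% or more in all 3 were 5 members, beside 29.7%. The other 13 members lay between these patterns. With TMM-scaled CPM, 31 members were lost in all 3 cultures, and the share of all tested genes was not counted on that scale.

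**Figure D3:**
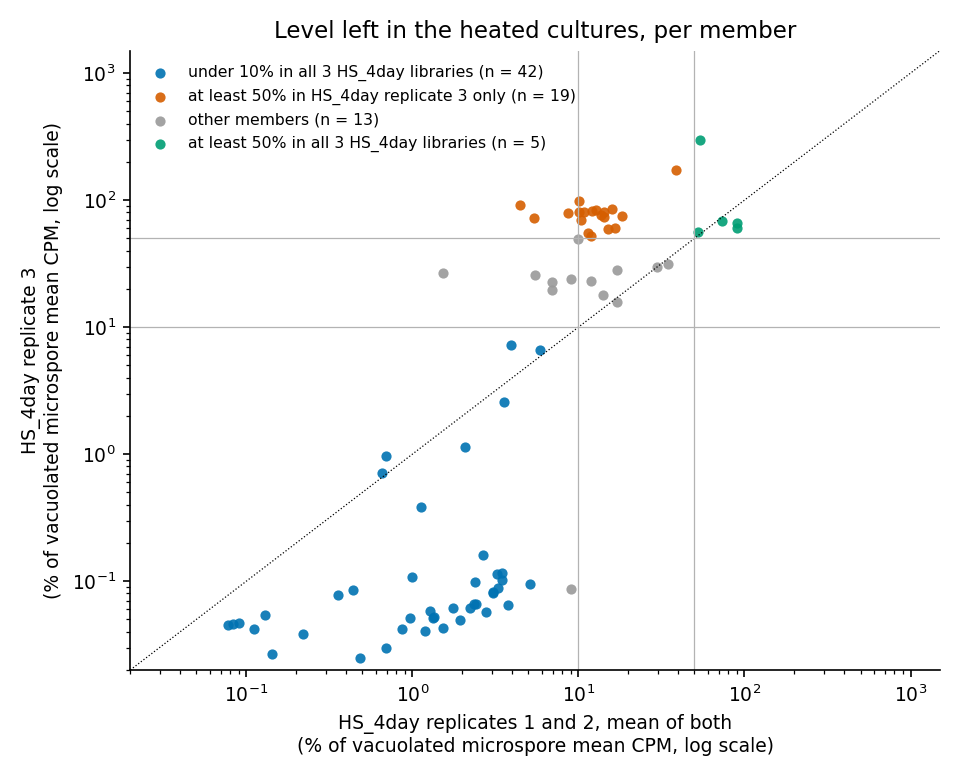
Level of each member in HS_4day replicate 3 (vertical) against the mean of HS_4day replicates 1 and 2 (horizontal), both as % of the vacuolated microspore mean CPM on log scales; grey lines mark 10% and 50%, and the dotted line marks equal levels. In replicate 3 the members divide into a group near 0.1% and a group above 15%, with few between.

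The 42 members lost in all heated cultures included 8 of the 10 most abundant. Their median was 8.06, 16.3 and 0.532 CPM in HS_4day replicates 1, 2 and 3. In vacuolated microspore replicates 1, 2 and 3 it was 902, 672 and 724 CPM. They did not vanish from the counts: the lowest count of any of them was 11, 28 and 6 in HS_4day replicates 1, 2 and 3, above the 3 counts taken as the floor. Whether counts this low came from remaining transcripts of these genes was not tested.

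Members 1 and 2 led this group. Member 1 stood at 77.8, 152 and 3.35 CPM in HS_4day replicates 1, 2 and 3, against 4344, 2722 and 2855 CPM in vacuolated microspore replicates 1, 2 and 3. Member 2 stood at 69.3, 139 and 3.66 CPM in the HS_4day libraries, against 4363, 2550 and 2801 CPM in the vacuolated microspore libraries. Each was far higher in HS_4day replicates 1 and 2 than in replicate 3, and neither came near its day 0 range. The edgeR quasi-likelihood test did not call them with all libraries, at log2 fold changes of -4.06 ± 1.79 and -4.17 ± 1.76 (SE; adjusted p = 0.134 and 0.122). Without HS_4day replicate 3 they fell, at -3.50 ± 0.47 and -3.61 ± 0.49 (SE; edgeR adjusted p = 8.43e-05 and 8.19e-05).

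Members 3, 4, 5 and 9 were lower still at day 4. Member 3 stood at 1.27, 4.10 and 0.50 CPM in the HS_4day libraries, against 1889, 1483 and 2246 CPM in the vacuolated microspore libraries. Member 9 stood at 1.58, 3.87 and 0.469 CPM in the HS_4day libraries, against 1179, 1114 and 1406 CPM in the vacuolated microspore libraries. In these, all heated cultures were under 1% of the day 0 mean. All 4 fell, with log2 fold changes of -8.62, -8.92, -8.68 and -8.00 for members 3, 4, 5 and 9 (edgeR adjusted p = 0.0143, 0.00953, 0.00928 and 0.0127). With replicate number added as a term, none of the 4 was called (edgeR adjusted p = 0.0626, 0.0508, 0.0513 and 0.0556 for members 3, 4, 5 and 9). Members 4 and 5 stayed called when any 1 library was left out, in refits that reuse the same libraries and are not separate support. Member 3 was not called without vacuolated microspore replicate 1, 2 or 3 or HS_4day replicate 1 (edgeR adjusted p = 0.0534, 0.0597, 0.0553 and 0.0604), with log2 fold changes of -8.61, -8.78, -8.45 and -8.42. Member 9 was not called without vacuolated microspore replicate 2 or 3 or HS_4day replicate 1 (edgeR adjusted p = 0.0554, 0.0527 and 0.0551), with log2 fold changes of -8.08, -7.88 and -7.90.

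The largest fitted falls among the members were those of GSBRNA2T00132941001 (member 19) and GSBRNA2T00045005001 (member 20), whose products the files do not name. GSBRNA2T00132941001 had 0.789, 0.708 and 0.438 CPM in HS_4day replicates 1, 2 and 3, or 23, 28 and 14 counts. In vacuolated microspore replicates 1, 2 and 3 it had 921, 808 and 1169 CPM. Its HS_4day values lay close together, including replicate 3, and were 1224-fold, 1365-fold and 2206-fold below the day 0 mean in replicates 1, 2 and 3 (fitted log2 fold change -9.38 ± 1.01 SE; edgeR adjusted p = 0.00531).

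GSBRNA2T00045005001 had 0.48, 1.11 and 0.438 CPM in HS_4day replicates 1, 2 and 3, or 14, 44 and 14 counts. In vacuolated microspore replicates 1, 2 and 3 it had 939, 807 and 1134 CPM. Replicate 2 was the highest of its heated cultures, and all 3 were far under the day 0 range (fitted log2 fold change -9.29 ± 1.08 SE; edgeR adjusted p = 0.00575). These genes both stayed called when any 1 library was left out. They were picked as the largest called falls in the same libraries, so these refits are not separate support.

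A few lost members kept a similar remnant in every heated culture. Member 12 stood at 8.27, 7.79 and 11.2 CPM in the HS_4day libraries, against 1106, 988 and 1402 CPM in the vacuolated microspore libraries. Here HS_4day replicate 3 was not the lowest of its group. The fall was called (edgeR log2 fold change -6.00 ± 0.76 SE, adjusted p = 0.00649).

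The 19 members kept in HS_4day replicate 3 only behaved otherwise. There they ranged from 246 to 1067 CPM, which was 52.5% to 173% of the day 0 mean. In HS_4day replicates 1 and 2 they ranged from 34.7 to 198 CPM and from 43.3 to 204 CPM, or 3.87% to 37.1% and 5.01% to 40.4%. In vacuolated microspores they ranged from 428 to 1292 CPM over the 3 libraries. They made up 1.01% of the counts of HS_4day replicate 3, against 0.159% and 0.166% of those of replicates 1 and 2. At day 0 they made up 1.22% to 1.31%.

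Member 8 was the most abundant of these. It stood at 198, 198 and 1067 CPM in HS_4day replicates 1, 2 and 3, against 1212, 1251 and 1292 CPM in the vacuolated microspore libraries. Replicates 1 and 2 were nearly equal and replicate 3 lay just under the day 0 range. Member 23 had the highest ratio of replicate 3 to the other heated cultures, with 34.7, 44.9 and 827 CPM in HS_4day replicates 1, 2 and 3, against 882, 798 and 1008 CPM in the vacuolated microspore libraries. In replicate 3 its level was inside the day 0 range.

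With all libraries the test called 0 of these 19 members in either direction. Without HS_4day replicate 3 it called 18 of them lower (edgeR adjusted p under 0.05), beside 37.5% of all tested genes. These members were grouped by their HS_4day values, which largely sets both counts, so nothing is read from them. The exception was member 64, at 187, 204 and 872 CPM in HS_4day replicates 1, 2 and 3, against 471, 486 and 556 CPM in the vacuolated microspore libraries. Its fitted log2 fold change was 0.43 ± 0.65 with all libraries and -0.017 ± 0.22 without HS_4day replicate 3 (SE; edgeR adjusted p = 0.629 and 0.948).

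The 5 members at 50% or more in all heated cultures were members 27, 59, 63, 65 and 66. Member 27 stood at 699, 838 and 514 CPM in the HS_4day libraries, against 756, 970 and 832 CPM in the vacuolated microspore libraries. It was the most abundant member in HS_4day replicates 1 and 2, and its groups overlapped. Member 63 stood at 465, 453 and 335 CPM in the HS_4day libraries, against 516, 455 and 550 CPM in the vacuolated microspore libraries, and also overlapped.

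Member 59, the ENSRNA row, stood at 354, 420 and 366 CPM in the HS_4day libraries, against 479, 511 and 600 CPM in the vacuolated microspore libraries. Member 65 stood at 261, 267 and 283 CPM in the HS_4day libraries, against 480, 524 and 501 CPM in the vacuolated microspore libraries. For both of these, every heated culture was below every day 0 library in CPM by library total, yet on the TMM scale HS_4day replicates 1 and 2 were above the day 0 mean.

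Member 66 was the single raised member in CPM by library total. With TMM-scaled CPM, members 27 and 63 were raised in HS_4day replicate 1, members 27, 59 and 63 in replicate 2, and members 64 and 66 in replicate 3. In CPM by library total member 66 stood at 250, 277 and 1448 CPM in HS_4day replicates 1, 2 and 3, against 468, 513 and 491 CPM in the vacuolated microspore libraries. It was the most abundant member of HS_4day replicate 3, where it stood at 295% of the day 0 mean, against 51.0% and 56.4% in replicates 1 and 2.

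The direction of these 5 members depended on the scale. Their fitted log2 fold changes on the TMM scale lay between 0.18 and 1.07 and were not called with all libraries. Without HS_4day replicate 3, members 27, 59 and 63 rose on that scale, with log2 fold changes of 1.21 ± 0.28, 0.90 ± 0.24 and 1.21 ± 0.24 (SE; edgeR adjusted p = 0.00308, 0.00725 and 0.00123). With library size alone and all libraries, members 27, 59, 63 and 65 had negative fold changes. These 5 members held 40.2% and 37.3% of all member counts in HS_4day replicates 1 and 2 and 19.5% in replicate 3.

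The remaining 13 members ended between these patterns. Member 10 stood at 62.1, 68.5 and 306 CPM in the HS_4day libraries, against 1478, 1047 and 1031 CPM in the vacuolated microspore libraries. Member 71 stood at 6.93, 7.31 and 123 CPM in the HS_4day libraries, against 448, 453 and 495 CPM in the vacuolated microspore libraries. In both, HS_4day replicate 3 was the highest heated culture. Member 72 went the other way, with 26.1, 57.7 and 0.407 CPM in HS_4day replicates 1, 2 and 3, against 515, 411 and 470 CPM in the vacuolated microspore libraries. All 13 had every HS_4day library below every day 0 library, beside 45.5% of all tested genes, and 4 of them were called lower with all libraries, beside 11.4%. Their HS_4day values chose this group too.

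Over all members, 73 of 79 (92.4%) had every HS_4day library below every vacuolated microspore library in CPM by library total, beside 45.5% of all tested genes. By TMM-scaled CPM 62 members did so. The share of all tested genes was not counted on that scale, so the 45.5% is no comparison for the 62. The edgeR quasi-likelihood test on TMM-scaled counts of all libraries called 29 members lower (36.7%) at an adjusted p under 0.05, beside 11.4% of all tested genes. It called 0 higher, beside 17.3%, and 0 members were higher at an unadjusted p under 0.05. The 0 calls higher are shared with the other 921 genes among the 1000 highest mean CPM at day 0, of which 0% were called higher. DESeq2 and limma-voom also called 0 members higher, beside 25.6% and 12.3% of the genes each tested. The median fitted log2 fold change was -3.50 for the members and 0.07 for all tested genes. Library size alone in place of TMM moved the all-gene median to -0.78. As the members were chosen by high day 0 values, a fall was favoured, and the larger share is not read as a property of the members.

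Which members were called changed with any library left out. Without HS_4day replicate 3, 71 members were called lower (89.9%), beside 37.5% of all tested genes, and 3 were called higher, beside 35.5%. All 29 members called with every library were among the 71. Leaving out another library gave 8 to 17 calls lower, beside 1.9% to 7.23% of all tested genes. The fewest came without vacuolated microspore replicate 2 and the most without HS_4day replicate 2. The members called in these refits were all among the 29. Of the 42 members lost in all heated cultures, 25 were called with all libraries and 42 without HS_4day replicate 3, a group chosen on the values tested. Their median standard error was 1.47 on the log2 scale with all libraries and 0.395 without replicate 3.

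The heated cultures differed among themselves in what was left of the members. HS_4day replicate 3 was the lowest heated culture for 40 members, the highest for 32 and between the other libraries for 7. In it, 39 members were under 1% of the day 0 mean, 4 were between 1% and 10%, and the next member up stood at 15.8%. Under 1% were 22 members in HS_4day replicate 1 and 13 in replicate 2.

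HS_4day replicates 1 and 2 ordered the members almost alike. Across the 79 members the correlation of log2 CPM was 0.982 between them, 0.797 between replicates 1 and 3 and 0.715 between replicates 2 and 3. The mean level in vacuolated microspores correlated at -0.23, -0.161 and -0.33 with HS_4day replicates 1, 2 and 3. These are descriptions over a narrow range of day 0 levels chosen by the rule, and each library is shared by all 79 points.

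Replicate 2 was nevertheless about 2 times replicate 1 for the lost members. The ratio of HS_4day replicate 2 to replicate 1 in CPM had a median close to 2 among the 42 lost in all heated cultures, with quartiles of 1.76 and 2.22. It was at least 1.5 in 38 of them. Among the 19 members kept in replicate 3 only, the ratio had a median of 1.04 and was at least 1.5 in 0. Among the 5 kept in all cultures the median was 1.11. Over all 79 members the ratio was at least 1.5 in 40 (50.6%), beside 15.4% of all tested genes, whose median was 1.02. The all-gene share includes genes of few counts, whose ratios scatter more. The rule did not use these libraries, but their values helped to choose the groups of 42, 19 and 5 members. The contrast between those groups is therefore description only. HS_4day replicates 1 and 2 are also 2 single libraries of one group, so the ratio carries no test.

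**Figure D4:**
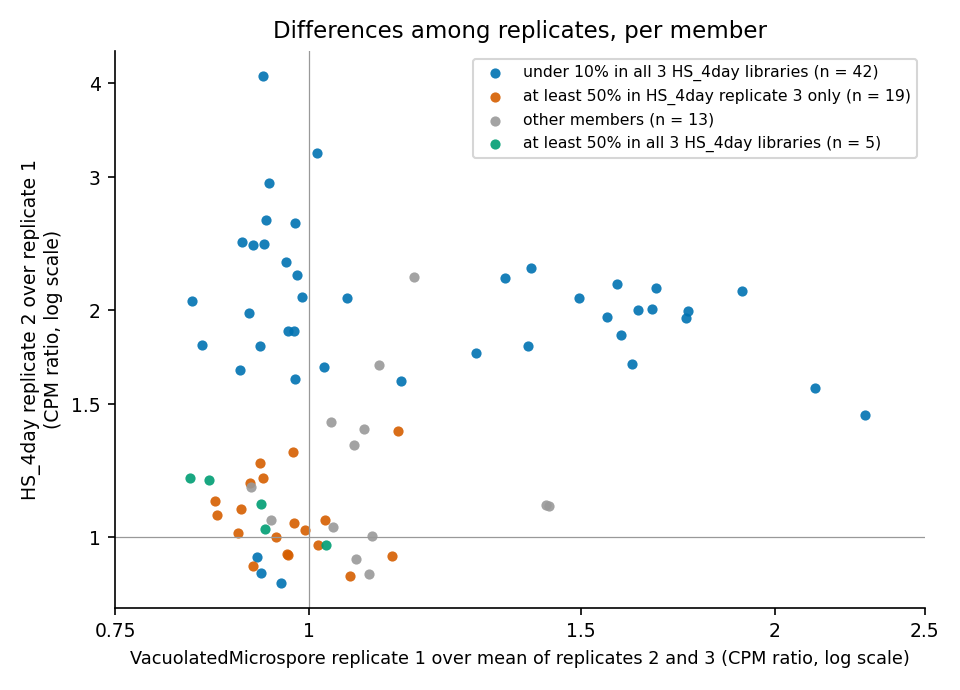
Ratio of CPM in HS_4day replicate 2 to replicate 1 (vertical) against the ratio of vacuolated microspore replicate 1 to the mean of its replicates 2 and 3 (horizontal), for each of the 79 members on log scales; grey lines mark a ratio of 1. Most members under 10% in all heated cultures lie near 2 on the vertical axis, and some of them also lie above 1.3 on the horizontal axis.

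Within vacuolated microspores, replicate 1 was well above the other libraries for some members. In 15 of 79 (19%) it was at least 1.3 times each of the other libraries, beside 12.9% of all tested genes. Replicate 2 was so for 0 members, beside 7.55%, and replicate 3 for 0, beside 3.05%. The rule used these values and required a high level in every one of these libraries, so nothing is read from these counts. Of the 15 members, 13 were lost in HS_4day replicate 3, members 1 and 2 among them. Their median was 15.8, 30.2 and 0.97 CPM in HS_4day replicates 1, 2 and 3, against 1254, 623 and 713 CPM in vacuolated microspore replicates 1, 2 and 3. The other 30 members lost in HS_4day replicate 3 had medians of 4.80, 8.23 and 0.501 CPM in the HS_4day libraries, against 777, 713 and 718 CPM in the vacuolated microspore libraries. The 13 members thus left the larger remnant in each heated culture, by medians and without a test. This split rests on the day 0 values that chose the members and on the values of HS_4day replicate 3.

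Other abundant genes of vacuolated microspores give the setting for these patterns. Among the 921 tested genes that completed the 1000 highest mean CPM at day 0, 15.1% were lost in all heated cultures, against 53.2% of the members. At 50% or more in HS_4day replicate 3 only were 61.1% of those 921 genes, against 24.1% of the members. With all libraries the test called 16.6% of the 921 genes lower, against 36.7% of the members, and 0% of either higher. Without HS_4day replicate 3 the test called 87.8% of the 921 genes lower, close to the 89.9% of the members. At 50% or more in all heated cultures were 4.02% of the 921 genes and 6.33% of the members. Among the next 9000 genes by rank, 5.12% were lost in all heated cultures. The members were chosen by the measure that defines these ranks, so the differences were not tested. Of the 18 rows that missed the set in 1 library, 7 were lost in all heated cultures, 9 were at 50% or more in HS_4day replicate 3 only and 1 was so in all. Of the 27 rows among the 100 highest in 1 library only, 18 were lost in all heated cultures, 5 were at 50% or more in HS_4day replicate 3 only and 2 were so in all. The lost class was thus more frequent among these 27 rows than among the members, and less frequent among the 18 rows. Both sets are small and were chosen by day 0 values. Of the 139 genes among the 921 that were lost in all heated cultures, the median ratio of HS_4day replicate 2 to replicate 1 was 1.84.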

How the data were processed

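The authors deposited raw counts per gene for 6 libraries. They also deposited values on a log2 scale, made by a variance-stabilising transformation, with 76486 rows and columns for 5 libraries in the copy used here (without HS_4day replicate 3). The submitters' processing notes name fastp 0.22.0, HISAT2 and DESeq2. How reads were counted, on which build and annotation, and what became of multiply mapped reads is not given in the sources used here. The libraries were non-directional per the labels' protocols, so antisense reads count with their partner gene, and near-identical homoeologues could share reads. Of the identifiers, 0 were found in the reference gene table, so planned gene lists and markers were not applied and no sequence is shown.

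CPM used library totals, as the rule asks. HS_4day was tested against VacuolatedMicrospore with edgeR 4.0.16 (limma 3.58.1, DESeq2 1.42.0, R 4.3.3): filterByExpr with a minimum count of 10 left 56949 genes, all 79 members included, and TMM factors of 0.55, 0.567 and 1.18 in HS_4day and 1.39, 1.43 and 1.37 in VacuolatedMicrospore replicates 1, 2 and 3. The quasi-likelihood F test had group as its only term, p-values were Benjamini-Hochberg adjusted over all tested genes, and standard errors were the fold change over the square root of F. The code was tested on simulated data. The series calls its replicates biological. Named identifiers were limited to the largest fitted falls among called members without overlap, 2 of them; no member was called higher. Members, lists and thresholds were chosen with earlier results of these data known.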

Additional observations from a re-analysis of the deposited data

How the results depend on the processing

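The count of members called lower moved with the setting. Against 29 with all libraries and edgeR, it was 46 with library size alone, 56 with the DESeq2 Wald test and 48 with limma-voom. It was 72 with limma on the deposited transformed values, which lack HS_4day replicate 3. Of all genes tested, 11.4% were called lower with edgeR, and 18.1%, 18.4%, 13.0% and 34.3% with those settings in the same order. The share over all genes thus moved too, and the cause was not tested. Leaving out 1 library gave 8 to 71 calls lower, beside 1.9% to 37.5% of all tested genes. It gave 0 to 3 calls higher, beside 3.4% to 35.5%, and the transformed values gave 3 higher, beside 31.7%. The RLE size factors and the absence of a filter each gave 28 calls lower, beside 11.2% and 6.15% of the genes tested. The replicate numbers showed no pairing, with correlations of deviations of -0.0122, -0.0349 and -0.0363. With the replicate block 9 members were called lower, beside 2.37% of all tested genes, and it has fewer residual degrees of freedom. TMM-scaled CPM gave 8 and 9 members at 50% or more in HS_4day replicates 1 and 2, where library totals gave 5, and 33 lost in replicate 2, where library totals gave 52. With library size alone the log2 fold changes of members 27, 59, 63, 64 and 65 were -0.28, -0.44, -0.24, -0.24 and -0.85; member 64 was at -0.24 on the transformed values and between -0.017 (without HS_4day replicate 3) and 0.62 (without HS_4day replicate 1) with 1 library left out. Taking the 50 highest genes gave 38 members with 0.232%, 0.292% and 0.694% of counts in HS_4day replicates 1, 2 and 3, and the 200 highest gave 166 members with 1.09%, 1.21% and 3.22%. Choosing members without 1 vacuolated microspore library gave shares of 0.507% to 0.58%, 0.608% to 0.683% and 1.51% to 1.84%. No member had 3 counts or fewer in any library, and the lowest count was 6.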

Other observations

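Some members had nearly equal values throughout. Of the 3081 pairs of members, 3 had CPM values within 1.2 times of each other in all 6 libraries. Members 1 and 2 were within 1.12 times in every library, members 53 and 58 within 1.09 times, and members 68 and 73 within 1.11 times. Members 1 and 2 were lost in all heated cultures, and the other 4 were at 50% or more in HS_4day replicate 3 only. The files do not say which identifiers are homoeologues, so how far such pairs share reads was not tested.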
